A study of Homo sapiens with 6 samples.

Results

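The RB pathway is described here through 10 genes: the pocket proteins RB1, RBL1 and RBL2, the D cyclins CCND1, CCND2 and CCND3, the kinases CDK4 and CDK6, and the INK4 inhibitors CDKN2A and CDKN2B. They were taken by gene symbol from a deposited table of 20289 genes, of which 13552 were tested, and all 10 members were among those tested. RNA was sequenced from 6 cell cultures labelled T24, an established human bladder cancer line. In 3 libraries the cells had been lipofected with pcDNA3.1 carrying LINC00665, a long non-coding RNA, for overexpression. The other 3 had received Vector plasmids as the control. The labels name the same line, medium, reagent and extraction for both groups, and 3 independent experiments. No promoter, time after transfection or clone is given in the sources used here.

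When the libraries were checked for a mix-up, 3 of the 6 did not match the labelled line. The groups are therefore called by their labels, and line and plasmid cannot be told apart in any difference below. No count could be given without those 3 libraries, since no comparison between the labels would remain. Of 18 markers of urothelial and bladder cancer epithelium, 16 reached a mean of 1 CPM under the LINC00665 label and 6 under the Vector label, where GRHL3 and UPK3A were at 0 counts. Their summed level was 9115 to 11096 CPM under the LINC00665 label and 488 to 1872 CPM under the Vector label. KRT18 alone averaged 1892 and 1001 CPM and so held most of the Vector sum, whereas KRT7 averaged 2384 and 5.29 CPM. UPK1A, not tested for its low counts, went the other way, with 2 counts under the LINC00665 label and 33 under the Vector label. Of 15 markers of kidney tubule epithelium, 3 and 5 reached that mean, and their sum was 37.2 to 39.5 CPM and 382 to 545 CPM. Against that sum, LHX1 and GGT1 were called higher under the LINC00665 label, at 18.5 and 3.04 CPM, with 0.337 and 0.692 CPM under the Vector label. The 11 fibroblast, 8 endothelial and 9 leukocyte markers summed to 246 to 274, 16.1 to 19.9 and 117 to 189 CPM under the LINC00665 label, and to 2.38 to 4.57, 0.280 to 1.14 and 10.8 to 16.96 CPM under the Vector label. The largest of these under the LINC00665 label were THY1 among the fibroblast markers, at 164 CPM, and CD74 among the leukocyte markers, at 122 CPM. The leukocyte antigen gene PTPRC had 0 counts under the LINC00665 label and 1 count under the Vector label. The part of these markers in the results was not tested. Fewer cells of a type and less RNA per cell cannot be told apart in such bulk samples.

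As background, RB1 and its relatives RBL1 (p107) and RBL2 (p130) bind E2F transcription factors and hold back the genes of DNA replication. D cyclins activate CDK4 and CDK6, which phosphorylate the pocket proteins and release E2F. The INK4 proteins bind CDK4 and CDK6 and block that step, and loss of this control is common in bladder cancer. CDKN2A encodes p16, an INK4 protein, and through another first exon ARF, a stabiliser of p53. Both are counted in 1 row of the table and cannot be separated here.

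Promoter sequences are shown for the INK4 genes, which lie next to each other on chromosome 9 and were both higher under the LINC00665 label, and for RBL1, whose window holds a pair of E2F motifs. They come from RefSeq (GRCh38.p14) and run from 250 bases before a transcript start to 50 bases after it, on the minus strand. At least 1 entry was found for 8 of the 10 members, and CCND1 and CCND2 were the others. The only RB1 entry has its start at 48476450, inside the gene, so the region before the annotated RB1 start at 48303726 was not searched. The E2F motif was searched as TTTCGCGC or TTTGGCGC and the GC box as GGGCGG, on both strands, and capitals mark every match of either. The first CDKN2A window, chr9:21995275-21995574, belongs to the upstream start and the second, chr9:21974808-21975107, to a start 20467 bases downstream. The CDKN2B window is chr9:22009256-22009555 and the RBL1 window chr20:37095948-37096247.
CDKN2A upstream: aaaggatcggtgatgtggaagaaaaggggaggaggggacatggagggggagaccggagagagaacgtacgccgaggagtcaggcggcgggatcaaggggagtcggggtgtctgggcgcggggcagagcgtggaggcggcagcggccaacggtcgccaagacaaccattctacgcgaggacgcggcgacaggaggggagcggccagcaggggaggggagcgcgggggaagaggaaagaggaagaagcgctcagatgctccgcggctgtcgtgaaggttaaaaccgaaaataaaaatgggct
CDKN2A downstream: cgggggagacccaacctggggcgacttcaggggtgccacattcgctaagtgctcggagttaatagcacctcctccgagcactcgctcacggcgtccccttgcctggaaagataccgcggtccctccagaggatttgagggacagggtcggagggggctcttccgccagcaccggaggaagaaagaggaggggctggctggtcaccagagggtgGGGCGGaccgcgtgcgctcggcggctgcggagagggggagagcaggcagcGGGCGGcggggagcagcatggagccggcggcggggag
CDKN2B: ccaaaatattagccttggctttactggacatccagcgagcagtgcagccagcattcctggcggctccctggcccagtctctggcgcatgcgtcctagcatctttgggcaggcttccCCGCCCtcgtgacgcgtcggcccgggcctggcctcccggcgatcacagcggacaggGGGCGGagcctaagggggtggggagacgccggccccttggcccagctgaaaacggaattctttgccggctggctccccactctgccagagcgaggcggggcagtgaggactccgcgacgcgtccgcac
RBL1: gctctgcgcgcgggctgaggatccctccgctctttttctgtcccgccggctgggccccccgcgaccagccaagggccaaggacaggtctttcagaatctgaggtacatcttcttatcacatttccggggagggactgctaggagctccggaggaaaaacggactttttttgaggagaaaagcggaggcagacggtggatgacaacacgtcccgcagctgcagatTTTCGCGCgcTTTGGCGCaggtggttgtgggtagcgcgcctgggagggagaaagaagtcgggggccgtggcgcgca
The RBL1 window held 2 E2F motifs and was printed for them, so nothing is read from their presence. Among the 13 windows found for the members, no other held one. Of the 35116 RefSeq promoter windows, 1.15% hold at least 1. GC boxes occur in 45.0% of all windows; the downstream CDKN2A window and the CDKN2B window held 2 each. The CpG count was 28 and 26 in the CDKN2A windows and 25 each in those of CDKN2B and RBL1, against a median of 14 over all windows. A match describes these letters and is not evidence of binding.

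RB1 and CDKN2A moved in opposite directions. RB1 was 13.4-fold lower and CDKN2A 8.61-fold higher under the LINC00665 label, and the other INK4 gene, CDKN2B, was 5.05-fold higher. CCND3 and the scarcely detected CCND2 were higher, RBL2 and RBL1 were lower, and CCND1, CDK4 and CDK6 did not pass the test. In all, 4 members rose and 3 fell by the quasi-likelihood test of edgeR, with p-values adjusted over all tested genes (Benjamini-Hochberg) and a threshold of 0.05. Of all tested genes, 34.2% rose and 29.3% fell, 63.5% together, so 7 of 10 members called is close to the background. A log2 fold change of 1 or more in size was reached by 4 called members (RB1, CCND2, CDKN2A and CDKN2B), against 42.0% of all tested genes. The same 4 were at or beyond the size of the CDKN2B change, which 18.8% of tested genes reached with a call, and nothing is read from that, since a member sets it. The libraries of the 2 labels did not overlap for 7 of the 10 members, against 70.2% of all tested genes. The members' median absolute log2 fold change was 0.87, against 0.82 over all tested genes. CCND2 is among the rises, the large changes and the members without overlap in these counts. It passed the filter on low counts through the LINC00665 label alone, which fixes its direction. With a mean of 1 CPM required in both groups, 3 of 9 members rose and 2 fell. Of all 11267 genes then tested, 3213 rose and 3235 fell.

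**Figure D1:**
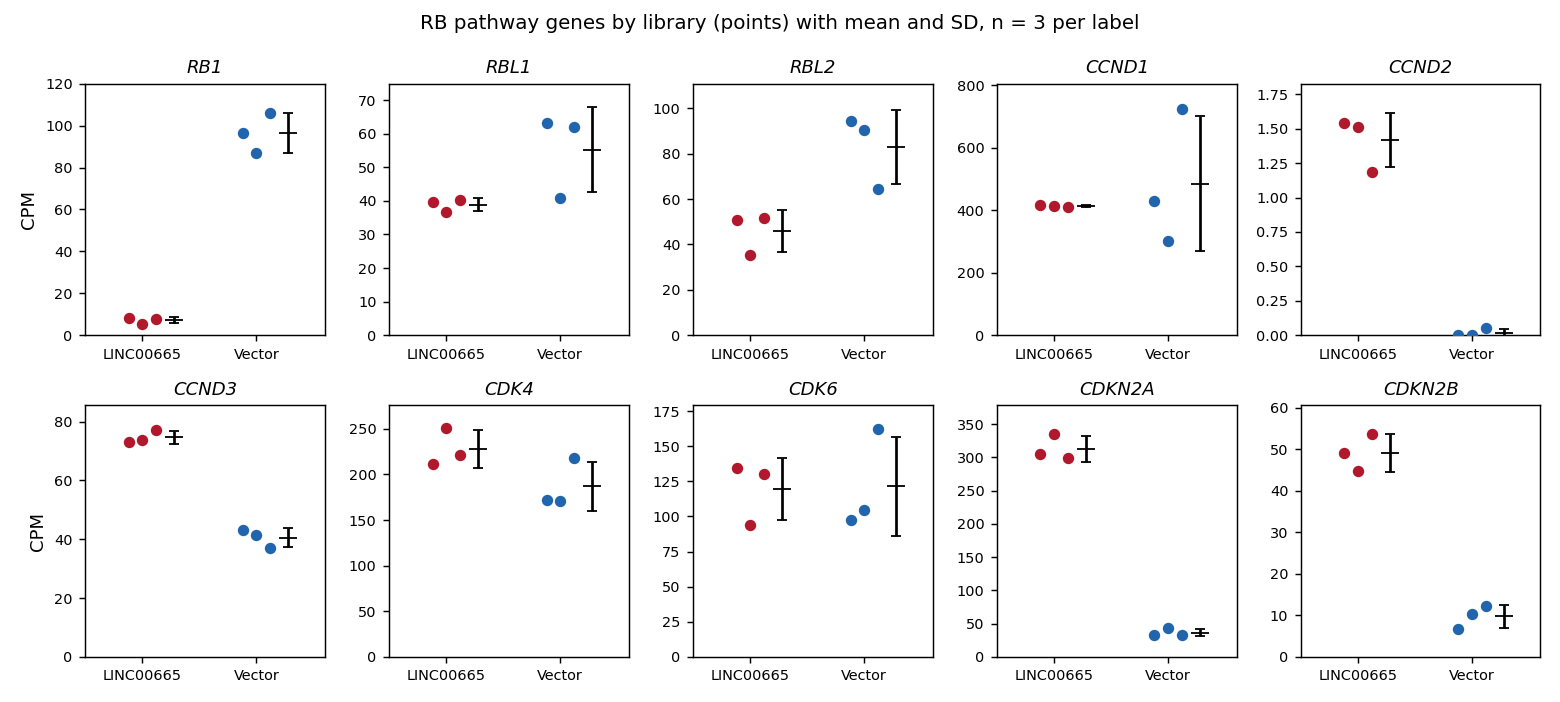
CPM of each RB pathway gene (vertical axes from 0, a scale per panel) in the 3 libraries labelled LINC00665 (red) and the 3 labelled Vector (blue), with mean and SD in black. RB1 lies at 5.46 to 8.18 CPM under the LINC00665 label and at 87.0 to 106 CPM under the Vector label, while CDKN2A lies at 299 to 335 and 32.6 to 42.9 CPM.

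RB1, the pocket protein whose loss defines retinoblastoma, lies on chromosome 13 at 48303726 to 48599436 (GRCh38, plus strand). It stood at 8.18, 5.46 and 7.86 CPM in the libraries labelled LINC00665 1 to 3, and at 96.5, 87.0 and 106 CPM in those labelled Vector 1 to 3. CPM are expected counts relative to the library total, after trimmed-mean scaling (TMM). The groups lay far apart, with every library labelled LINC00665 below 10% of every library labelled Vector. The means were 7.17 ± 1.49 and 96.5 ± 9.58 CPM (SD, n = 3 each), over 426 and 5689 expected counts in all. The log2 fold change was -3.75 (SE 0.20, edgeR adjusted p = 1.9e-06, 95% interval -4.22 to -3.28). A change of that size or more, in either direction, was seen in 12.7% of tested genes, and a log2 fold change as low or lower in 1.36%. RB1 RNA was low but present under the LINC00665 label.

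RBL2, which encodes p130, the pocket protein of resting cells, had 50.9, 35.4 and 51.4 CPM under the LINC00665 label and 94.4, 90.7 and 64.4 CPM under the Vector label. The groups did not overlap, and Vector 3 lay nearest to the other label. The log2 fold change was -0.86 (SE 0.21, edgeR adjusted p = 0.0075). RBL2 shares 610 exon bases with AKTIP and 721 with AC007342.6, both on the opposite strand, and whether counting used strand is not stated. RBL1, which encodes p107 and is itself known as an E2F target, had 39.8, 36.7 and 40.3 CPM under the LINC00665 label and 63.1, 40.8 and 62.0 CPM under the Vector label. Vector 2 lay just above the highest library labelled LINC00665. Its log2 fold change of -0.51 (SE 0.19) passed narrowly, with an edgeR adjusted p of 0.045. The call was lost in 10 of 14 alternative analyses, among them those without LINC00665 1 (adjusted p = 0.11), LINC00665 2 (0.13), LINC00665 3 (0.097), Vector 1 (0.14) or Vector 3 (0.090), and with the median ratio size factors (0.056).

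The makeup of the pocket protein RNA differed accordingly. By FPKM, the authors' values per gene length, RB1 made up 8.33, 7.68 and 8.11% of the summed RB1, RBL1 and RBL2 under the LINC00665 label, and 38.8, 40.7 and 47.0% under the Vector label. RB1 was thus the least abundant of the 3 in every library labelled LINC00665 and the most abundant in Vector 1 and Vector 3. In Vector 2 it was second, after RBL2 at 42.4%. RBL2 was first under the LINC00665 label, at 51.0, 49.0 and 52.2%. Summed over the 3 genes, the level was 17.6 ± 3.42 FPKM under the LINC00665 label and 51.5 ± 4.23 FPKM under the Vector label (SD, n = 3 each). The two-sided exact permutation p was 0.1 for the RB1 share and for the sum, the smallest that 3 against 3 libraries can give.

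**Figure D2:**
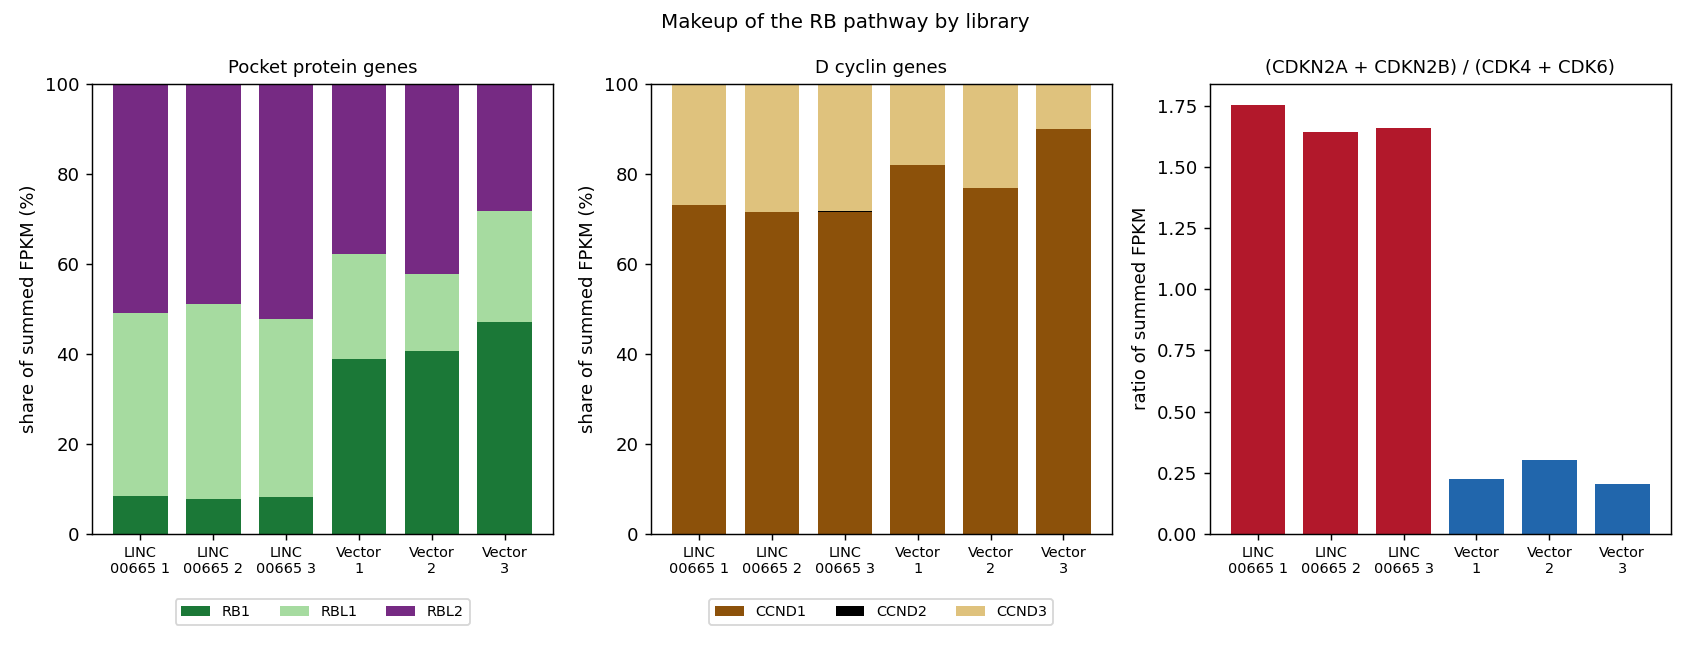
Bars per library, LINC00665 1 to 3 on the left and Vector 1 to 3 on the right: shares of summed FPKM (%) within the pocket protein genes and within the D cyclin genes, and the ratio of CDKN2A plus CDKN2B to CDK4 plus CDK6 in FPKM. RB1 makes up 7.68 to 8.33% of the pocket protein RNA under the LINC00665 label and 38.8 to 47.0% under the Vector label, and the ratio is 1.64 to 1.75 and 0.203 to 0.303.

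CDKN2A (chromosome 9, 21967753 to 21995301, minus strand) had 305, 335 and 299 CPM in the libraries labelled LINC00665, against 32.6, 42.9 and 33.6 CPM in those labelled Vector. Each group was narrow, with a coefficient of variation of 6.21% under the LINC00665 label and 15.6% under the Vector label, and the gap between them was several times wider than either. The log2 fold change was 3.11 (SE 0.17, edgeR adjusted p = 1.7e-06, 95% interval 2.72 to 3.49). CDKN2B, which encodes p15, an INK4 protein known as a target of TGF-beta signalling, is the next gene on the chromosome (22002903 to 22009363, minus strand). It had 49.1, 44.7 and 53.8 CPM under the LINC00665 label and 6.66, 10.3 and 12.3 CPM under the Vector label, and its log2 fold change was 2.34 (SE 0.24, edgeR adjusted p = 5.9e-05). Both inhibitors were thus higher in each library labelled LINC00665 than in any labelled Vector.

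Of the pair, the CDKN2A row, which includes ARF, held the larger part in every library. By FPKM, CDKN2B was 4.10, 3.60 and 4.56% of the pair under the LINC00665 label and 4.81, 6.05 and 8.44% under the Vector label. Of 4550 different stretches of 50 bases in the annotated CDKN2A transcripts, 31 also occur in CDKN2B, so a small part of their reads could be assigned to either. CDKN2A also shares 341 exon bases with CDKN2B-AS1 on the opposite strand, and whether counting used strand is not stated in any source used here.

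Of the other genes tested on the same stretch of chromosome 9, more rose than fell. Of the 5 listed neighbours, MTAP, DMRTA1 and ELAVL2 rose, KLHL9 did not pass, and IFNE was too low to test, with 3 counts under the LINC00665 label and 2 under the Vector label. MTAP, an enzyme of methionine salvage known to be deleted together with CDKN2A in many cancers, had 135, 112 and 111 CPM under the LINC00665 label and 39.7, 21.6 and 40.9 CPM under the Vector label (log2 fold change 1.81, SE 0.25, edgeR adjusted p = 0.00034). MTAP and CDKN2A RNA were therefore present in all 6 libraries. The 10 tested genes nearest to CDKN2A, 5 on each side, were counted after the data had been seen. CDKN2B, itself a member that rose, is among them. Of these 10, 6 rose and 1 (CAAP1, log2 fold change -0.62, edgeR adjusted p = 0.0067) fell. Over all tested genes, 34.2% rose and 29.3% fell. ELAVL2, an RNA-binding protein gene best known from neurons, averaged 44.7 ± 1.38 and 1.68 ± 0.182 CPM (SD, n = 3 each). KLHL9 averaged 28.2 and 41.2 CPM, with an adjusted p of 0.063 by edgeR.

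Genes of proteins known to act on the INK4 locus moved both ways. Of 12 listed and tested, 6 rose, 4 fell and 2 did not pass, which is 83.3% against 63.5% of all tested genes. Without LINC00665 2 the falls numbered 2. EZH2 and EED, subunits of the Polycomb complex that methylates histone H3 and represses the locus, rose, with log2 fold changes of 1.26 and 1.67 (SE 0.14 and 0.16, edgeR adjusted p = 0.00010 and 4.1e-05). EZH2 averaged 161 ± 3.93 CPM under the LINC00665 label and 67.2 ± 7.27 CPM under the Vector label. SUZ12, another core subunit of that complex, fell, at 40.6 ± 5.03 and 56.1 ± 3.23 CPM (log2 fold change -0.47, edgeR adjusted p = 0.023). The SUZ12 call was lost in 2 of 14 alternative analyses, those without LINC00665 1 or LINC00665 2. Subunits of the other Polycomb complex did not share a direction either. BMI1 and CBX7 fell, at 22.7 and 6.22 CPM under the LINC00665 label and 38.1 and 21.6 CPM under the Vector label. CBX8 rose, at 15.6 and 7.02 CPM, and RNF2, at 31.0 and 25.8 CPM, did not pass. The CBX8 call was lost in 1 of 14 alternative analyses, limma-trend on log2(FPKM + 1). ETS2, a transcription factor known as an activator of p16, averaged 369 ± 23.6 and 113 ± 24.5 CPM. JUNB, an AP-1 subunit known as an activator of p16 in mouse cells, averaged 631 ± 143 and 53.7 ± 11.6 CPM (SD, n = 3 each).

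CCND1, the D cyclin gene most often amplified in bladder cancer, had 416, 414 and 411 CPM under the LINC00665 label and 428, 302 and 723 CPM under the Vector label. The 3 libraries labelled LINC00665 agreed within 1.01-fold, whereas those labelled Vector spanned 2.40-fold and lay on both sides of them. No difference passed the test (log2 fold change -0.23, SE 0.28, edgeR adjusted p = 0.51), and the 95% interval of -0.88 to 0.43 leaves room for a change in either direction. Vector 3 set the sign: without it the log2 fold change was 0.18. CCND1 shares 497 exon bases with LTO1 on the opposite strand, a gene at 32.4 CPM under the LINC00665 label and 10.1 CPM under the Vector label.

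CCND3, the D cyclin best known from lymphocytes, had 73.1, 73.8 and 77.2 CPM under the LINC00665 label and 43.2, 41.4 and 37.0 CPM under the Vector label. The groups were tight and well apart, and the gene was 1.84-fold higher (log2 fold change 0.88, SE 0.13, edgeR adjusted p = 0.00058). CCND2 was close to absent in both groups. It had 84 counts over the 3 libraries labelled LINC00665, 1.54, 1.52 and 1.19 CPM, and 1 count over those labelled Vector, all of it in Vector 3. The ratio was 83.5 with an exact 95% binomial interval of 14.6 to 3339, which covers counting error only. CCND2 passed the filter on low counts through the LINC00665 label alone, which fixes its direction. It shares 989 exon bases with an overlapping gene on the same strand, ENSG00000285901, which averaged 4.86 CPM under the LINC00665 label and 0 counts under the Vector label, so the CCND2 value is uncertain.

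By FPKM, CCND1 made up 72.9, 71.4 and 71.5% of the D cyclin RNA under the LINC00665 label and 82.0, 76.9 and 89.8% under the Vector label. CCND3 made up nearly all of the rest, at 26.9 to 28.4% and 10.2 to 23.1%, and CCND2 stayed under 1% in all 6 libraries. CCND1 was thus the main D cyclin throughout, with a smaller share in each library labelled LINC00665 (exact permutation p = 0.1, two-sided, the smallest possible). The summed level was 129, 127 and 134 FPKM under the LINC00665 label and 132, 96.4 and 201 FPKM under the Vector label. These sums overlapped (exact permutation p = 0.8, two-sided).

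CDK4 and CDK6, the kinases of the D cyclins, did not pass the test. CDK4 had 211, 251 and 221 CPM under the LINC00665 label and 172, 170 and 218 CPM under the Vector label, where Vector 3 lay among the libraries of the other label. The log2 fold change was 0.28 (SE 0.16, edgeR adjusted p = 0.14, 95% interval -0.07 to 0.64). Without Vector 3 it was 0.41 and passed, with an adjusted p of 0.032. CDK4 shares 1369 exon bases with TSPAN31 on the opposite strand, a gene at 18.5 and 7.54 CPM. CDK6 had 134, 94.2 and 130 CPM under the LINC00665 label and 97.4, 105 and 162 CPM under the Vector label, and its groups overlapped. The log2 fold change was -0.02 (SE 0.23, edgeR adjusted p = 0.94, 95% interval -0.56 to 0.51). By FPKM, CDK6 was 3.68 to 6.15% of the kinase pair under the LINC00665 label and 5.22 to 6.98% under the Vector label, so CDK4 held most of the RNA in every library.

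**Figure D3:**
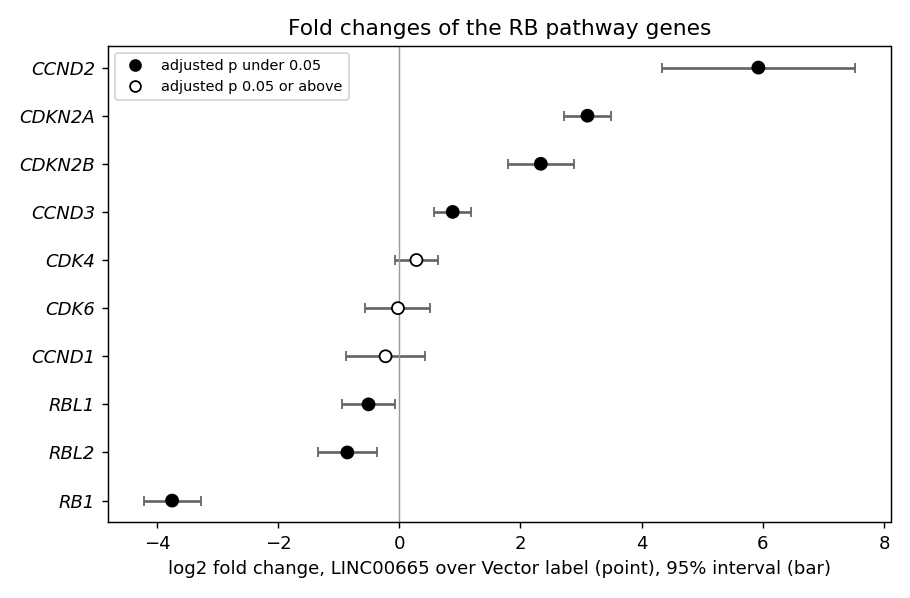
Log2 fold change of the RB pathway genes, LINC00665 over Vector label, with 95% intervals (horizontal axis), sorted by value, filled points at an edgeR adjusted p under 0.05. RB1 stands alone at -3.75, CDKN2A and CDKN2B lie at 3.11 and 2.34, and the intervals of CCND1, CDK4 and CDK6 span 0.

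The inhibitors were also set against the kinases they bind. The ratio of summed CDKN2A and CDKN2B to summed CDK4 and CDK6 RNA, in FPKM, was 1.75, 1.64 and 1.66 in the libraries labelled LINC00665. It was 0.223, 0.303 and 0.203 in those labelled Vector. The summed rows of CDKN2A, ARF included, and CDKN2B thus exceeded those of the kinases in each library labelled LINC00665 and in none labelled Vector. CDKN2C and CDKN2D are not in this sum. On the log2 scale the ratio averaged 0.75 ± 0.05 and -2.06 ± 0.30 (SD, n = 3 each, exact permutation p = 0.1, two-sided). The ratio of CDKN2A to RB1, also in FPKM, was 184, 304 and 191 under the LINC00665 label and 1.69, 2.39 and 1.63 under the Vector label.

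The order of the members by mean FPKM changed between the labels. Under the LINC00665 label CDKN2A stood first at 308 ± 10.5 FPKM (SD, n = 3), before CDK4 at 181 ± 13.8, CCND1 at 93.6 ± 2.51, CCND3 at 36.3 ± 1.56 and CDKN2B at 13.1 ± 1.35 FPKM. CDK6, RBL2 and RBL1 followed at 9.74 ± 2.01, 8.97 ± 1.98 and 7.22 ± 1.12 FPKM. The SDs of these 3 means overlap, but the order was the same within each of the 3 libraries. RB1 came next at 1.42 ± 0.323 FPKM, and CCND2 was last. Under the Vector label CDK4 led at 171 ± 22.97 FPKM and CCND1 followed at 121 ± 54.4 FPKM, within a wide spread, before CDKN2A at 40.7 ± 4.90 FPKM. CCND3 and RB1, at 22.1 ± 1.64 and 21.7 ± 2.38 FPKM, could not be ranked against each other, nor could RBL1 and CDK6, at 11.2 ± 2.76 and 11.1 ± 3.23 FPKM.

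Other inhibitors of cyclin-dependent kinases changed in both directions. Of 5 listed, 3 rose, 1 fell and 1 did not pass, where 34.2% of all tested genes rose and 29.3% fell. CDKN1A, which encodes p21, the p53 target that inhibits CDK2, had 817, 990 and 766 CPM under the LINC00665 label and 242, 258 and 156 CPM under the Vector label (log2 fold change 1.97, SE 0.22, edgeR adjusted p = 9.7e-05). CDKN1C, which encodes p57, an inhibitor expressed from the maternal allele, averaged 42.4 ± 12.1 CPM under the LINC00665 label and 0.181 ± 0.114 CPM, 11 counts in all, under the Vector label. It passed the filter on low counts through the LINC00665 label, and with a mean of 1 CPM required in both groups 2 of 4 inhibitors rose and 1 fell. The remaining INK4 genes went apart, CDKN2D (p19) at 16.0 and 5.76 CPM and CDKN2C (p18) at 12.4 and 30.0 CPM (edgeR adjusted p = 0.0012 and 0.0045). INK4 genes thus did not all move one way. CDKN1B, which encodes p27, averaged 58.2 and 62.3 CPM and did not pass.

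The E2F transcription factors, which the pocket proteins bind, changed in both directions. Of 10 E2F and DP genes, 5 rose, 2 fell and 3 did not pass, and 70.0% called is close to the 63.5% of all tested genes. E2F3, an activator E2F gained in a subset of bladder cancers, had 470, 482 and 464 CPM under the LINC00665 label and 64.6, 86.3 and 82.0 CPM under the Vector label (log2 fold change 2.60, SE 0.16, edgeR adjusted p = 3.5e-06). E2F7, a repressor E2F and itself an E2F target, had 213, 217 and 256 CPM under the LINC00665 label and 56.3, 53.2 and 47.7 CPM under the Vector label (2.13, SE 0.15, adjusted p = 7.8e-06). E2F1 rose to 89.4 ± 6.19 CPM, against 33.6 ± 15.3 CPM, and E2F8 to 31.7 ± 2.29 CPM, against 13.3 ± 5.58 CPM (SD, n = 3 each). E2F2 fell, at 17.2, 16.5 and 18.6 CPM under the LINC00665 label and 46.9, 17.2 and 48.4 CPM under the Vector label. Its groups overlapped at Vector 2, and the call was lost in 6 of 14 alternative analyses. E2F2 and E2F4 made up the 2 falls; neither passed without LINC00665 1, LINC00665 3 or Vector 1, and 1 of them passed without LINC00665 2 or Vector 3.

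**Figure D4:**
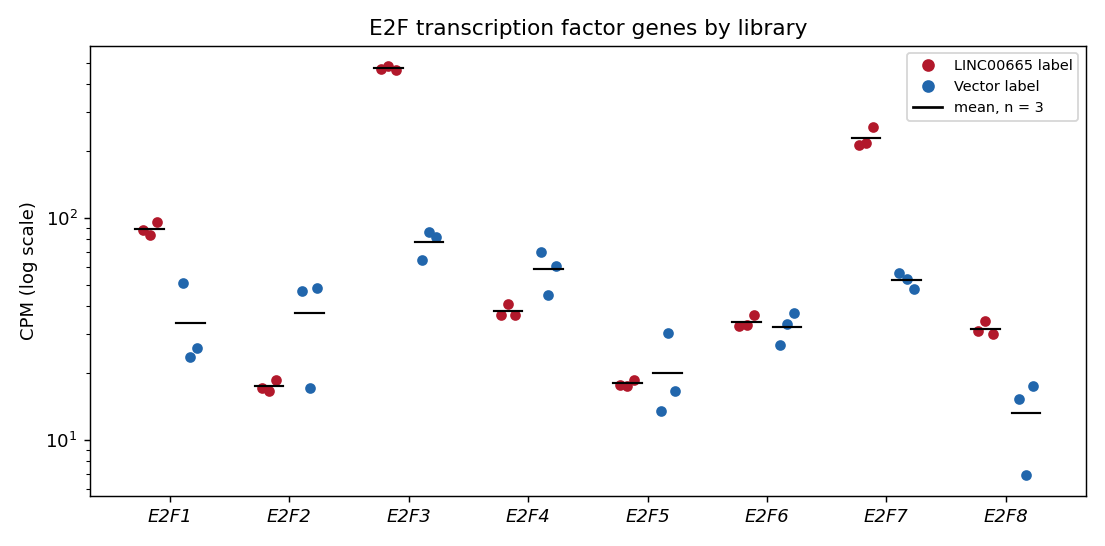
CPM (log scale, not corrected for gene length) of the 8 E2F genes in the libraries labelled LINC00665 (red, left of each pair) and Vector (blue, right), with the mean as a black line. E2F3 and E2F7 are the genes with the widest gaps, at 464 to 482 and 213 to 256 CPM under the LINC00665 label and 64.6 to 86.3 and 47.7 to 56.3 CPM under the Vector label.

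The genes that E2F is known to drive in S phase showed no common direction. Of 24 listed, all tested, 4 rose, 3 fell and 17 did not pass, which is 29.2% called, against 63.5% of all tested genes. RRM1, a subunit of ribonucleotide reductase, averaged 254 ± 8.05 CPM under the LINC00665 label and 151 ± 11.2 CPM under the Vector label. CDC6, a loader of the replicative helicase, averaged 188 ± 5.64 and 83.1 ± 28.5 CPM. The proliferation marker MKI67 was lower, at 164 ± 7.34 and 319 ± 70.5 CPM (SD, n = 3 each). PCNA, the polymerase clamp, averaged 206 ± 11.6 and 167 ± 77.6 CPM and did not pass (edgeR adjusted p = 0.44). The median log2 fold change over the 24 genes was 0.05, against 0.03 over all genes, and it turned to -0.11, with 3 higher and 6 lower, under total-count scaling. Without Vector 2 it was -0.11, with 4 higher and 11 lower. Without LINC00665 3 it was -0.07, and without LINC00665 1, LINC00665 3 or Vector 1 the falls numbered 2.

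**Figure D5:**
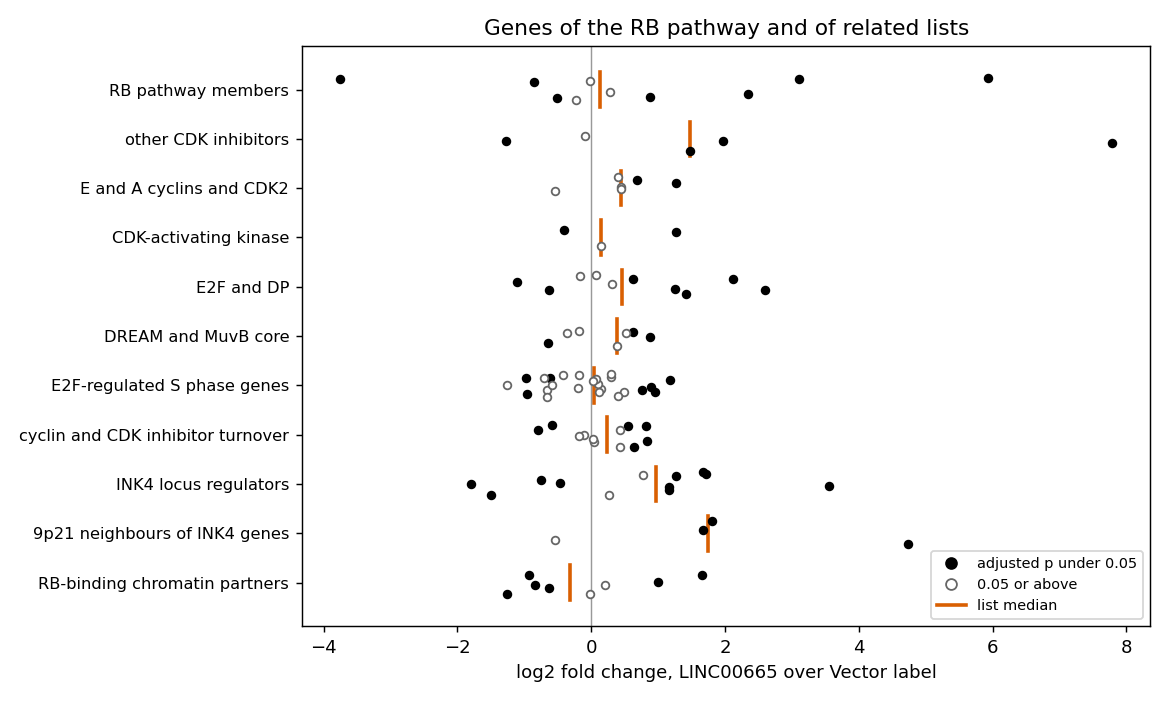
Log2 fold change, LINC00665 over Vector label (horizontal axis), of the tested genes in the RB pathway and in 10 related lists, filled where the edgeR adjusted p is under 0.05, with the list median in orange. The S phase genes lie between -1.26 and 1.18 around a median of 0.05, and the RB pathway members between -3.75 and 3.11 without CCND2. CCND2, at 5.93, passed the filter on low counts through the LINC00665 label alone.

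Genes for E and A cyclins and their partners, acting downstream of the D cyclins, were called less often than all tested genes. Of 6 tested genes for E and A cyclins, their kinases and the phosphatase CDC25A, 2 rose and 4 did not pass, CDC25A among these. That is 33.3% called, against 63.5% of all tested genes. CCNE1, the cyclin E gene that activates CDK2, had 36.1, 42.7 and 41.1 CPM under the LINC00665 label and 18.7, 12.4 and 18.5 CPM under the Vector label (log2 fold change 1.27, SE 0.20, edgeR adjusted p = 0.00062). CDK2 averaged 161 ± 12.98 and 100 ± 32.7 CPM, and its call (adjusted p = 0.032) was lost in 5 of 14 alternative analyses, among them those without LINC00665 1, 2 or 3 or Vector 1, where it ranged up to 0.11. Without Vector 3 the list had 4 rises, and without Vector 1 it had 1 rise. Without LINC00665 1, 2 or 3 it had 1 rise and 1 fall, and without Vector 2 it had 2 of each. In the runs without a LINC00665 library or Vector 2, 7 genes were tested, CCNA1 among them. CCNA1, not tested in the main run and low in both groups, had 4 counts under the LINC00665 label and 36 under the Vector label. Of the 3 genes of the CDK-activating kinase, 1 rose, 1 fell and 1 did not pass. With 66.7% called, that list was close to the 63.5% of all tested genes. The assembly factor MNAT1 averaged 31.0 ± 2.80 and 12.9 ± 3.87 CPM (edgeR adjusted p = 0.0018). The cyclin CCNH was lower, at 24.5 ± 0.567 and 32.4 ± 2.35 CPM (log2 fold change -0.40, adjusted p = 0.032), a call lost in 6 of 14 alternative analyses, among them those without LINC00665 1, 2 or 3 or Vector 1. The kinase CDK7 averaged 24.8 and 22.4 CPM and did not pass.

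Partners through which pocket proteins are known to act moved both ways. Of 8 chromatin partners, 2 rose and 4 fell, 6 called in all where 63.5% of all tested genes were called, and each analysis without 1 library gave the same counts. HDAC1, a histone deacetylase recruited by RB, averaged 141 ± 5.84 CPM under the LINC00665 label and 269 ± 8.53 CPM under the Vector label (log2 fold change -0.93, SE 0.13, edgeR adjusted p = 0.00031). The nucleosome remodelling ATPases SMARCA4 and SMARCA2 rose, to 285 ± 1.79 CPM, against 90.3 ± 15.1 CPM, and to 26.7 ± 0.847 CPM, against 13.3 ± 2.24 CPM. Of the 7 genes of the DREAM complex and its partners, 2 rose, 1 fell and 4 did not pass. That is 42.9% called, against 63.5% of all tested genes. The B-MYB gene MYBL2 averaged 421 ± 33.7 and 321 ± 92.4 CPM (edgeR adjusted p = 0.14). The calls were unstable: LIN37 lost its call in 2, LIN52 in 4 and FOXM1 in 8 of 14 alternative analyses, and none but FOXM1 passed under total-count scaling. Without Vector 3 the list had 3 rises, without any 1 LINC00665 library 1 rise, and FOXM1 did not pass without Vector 1, Vector 2 or any 1 LINC00665 library.

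Of 12 genes of cyclin and inhibitor turnover, 4 rose, 2 fell and 6 did not pass, where 34.2% of all tested genes rose and 29.3% fell. The list was thus called less often than all tested genes, of which 63.5% were called. CUL1, the scaffold of SCF ubiquitin ligases, fell to 57.1 ± 0.972 CPM, against 98.7 ± 12.4 CPM under the Vector label (edgeR adjusted p = 0.0016). CKS2, a small partner of CDKs, rose to 103 ± 23.9 CPM, against 58.1 ± 7.56 CPM (0.0063). AMBRA1, the ligase receptor that marks D cyclins for breakdown, averaged 93.2 ± 3.39 and 59.9 ± 18.99 CPM, and its call (0.032) was lost in 7 of 14 alternative analyses, among them every one without a library except Vector 2. Without LINC00665 1, LINC00665 3 or Vector 1 the list had 2 rises, as under total-count scaling, and without LINC00665 1 it had 1 fall.

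Genes with the pattern most like that of each member were found as the smallest root mean square difference between centred log2(CPM + 0.5) profiles over the 6 libraries, among 12882 other tested autosomal genes. They were ANK2 for RB1 (3.53 and 57.2 CPM), SCARF2 for CDKN2A (12.8 and 1.15 CPM), LPAR2 for CDKN2B (29.2 and 5.57 CPM) and CLIC4 for CCND3 (417 and 219 CPM). The differences were 0.18, 0.05, 0.08 and 0.04 on the log2 scale. All 6 points of each profile come from the same libraries, which the labels divide into the same groups for every gene.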

How the data were processed

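RNA was extracted with TRIzol and made into libraries with a TruSeq RNA kit (Illumina), per the labels' protocols. The submitters' processing notes name HISAT2 2.0.4 and the build hg38. No source used here states the counting tool, the annotation or whether strand was used. The authors deposited 1 table holding, for each gene, the expected count of every library, not normalised, 88.3 to 89.4% of them whole, and FPKM, which the authors normalised for gene length and depth, per the file headers. Totals ran from 17289788 to 22725687 expected counts per library.

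Rounded counts that passed filterByExpr were scaled by TMM, and edgeR 4.0.16 in R 4.3.3 tested them (glmQLFit, glmQLFTest) over all 6 libraries with no covariate. P-values were adjusted by Benjamini-Hochberg across 13552 genes and judged at 0.05. CPM use the same scaling. The SE is the log2 fold change over the square root of F, and p-values measure the spread between these libraries. The fit shared its dispersion between the groups. Fitted apart by edgeR, the common biological coefficient of variation was 12.85% under the LINC00665 label and 28.64% under the Vector label. A gene that did not pass may therefore still differ. Positions and overlaps are from GENCODE 29 (GRCh38). Shares were tested with exact permutation tests in scipy 1.17.1. The count test was checked on simulated counts with few changed genes and the same dispersion in both groups. Here 63.5% of tested genes were called and the spread of the groups was unequal, so that check does not cover these data.

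Members and lists were chosen with earlier results of these data known. Named genes are the 10 members, the 4 with the smallest p in each of 10 related lists and the gene most like each member, of which a selection is given. Named outside that rule, after their values were seen, were CBX7, BMI1, CBX8, RNF2, SUZ12, CAAP1, CDC25A, E2F2, E2F4, PCNA, MYBL2, CDKN1B, AMBRA1, CCNA1, IFNE and the neighbours of RB1 and E2F3. The count of the 10 genes nearest to CDKN2A was also added after the data were seen. Alternatives were other scalings, filters and tests (DESeq2 1.42.0, limma 3.58.1), the replicate number as a block, and leaving out each library. The replicate numbers did not pair the samples. Sequences came from RefSeq by symbol. Genes used in the check for mixed-up samples are not reported here.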

Additional observations from a re-analysis of the deposited data

How the results depend on the processing

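Under 14 alternatives, RB1, RBL2, CCND3, CDKN2A and CDKN2B kept their direction and their call. CCND2 was called under the 13 in which it was tested, but its low counts under the Vector label fix its direction there. The filter of a mean of 1 CPM in both groups drops it, and 3 of 9 members were then called higher and 2 lower. Over the analyses without 1 library, the log2 fold change ranged from -3.85 to -3.61 for RB1, -1.01 to -0.72 for RBL2, 5.42 to 7.81 for CCND2, 0.82 to 0.93 for CCND3, 3.03 to 3.24 for CDKN2A and 2.12 to 2.54 for CDKN2B.

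RBL1 lost its call with median ratio size factors (log2 fold change -0.48, adjusted p = 0.056), a mean of 1 CPM in both groups (-0.43, 0.081), limma-voom (-0.48, 0.058), limma-trend fitted to log2(FPKM + 1) values (-0.56, 0.05005), the replicate block (-0.48, 0.060) and without 5 of the 6 libraries in turn (-0.69 to -0.40 over all 6). CDK4, not called, ranged from 0.19 to 0.41 and passed without Vector 3. CCND1 ranged from -0.48 to 0.18 and turned positive without Vector 3. CDK6 ranged from -0.16 to 0.24 and turned positive without LINC00665 2 (0.11) or Vector 3 (0.24), with median ratio size factors (0.0032), with DESeq2 (0.0031) and with a mean of 1 CPM in both groups (0.051), and was called in none of these. The cause was not tested. The count of members called ranged from 6 to 7 without 1 library, with 4 to 5 higher and 2 to 3 lower.

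Over all genes 8611 were called, 7458 to 9258 without 1 library and 7924 with the replicate block. Total-count scaling moved the median log2 fold change of all genes to -0.13, against 0.03, and gave 4174 higher and 4771 lower, against 4634 and 3977. The correlation of same-numbered libraries' deviations was 0.22, -0.16 and -0.20, so the numbers were not taken to pair them. Among the members the block changed the call of RBL1 only.

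With CPM in place of FPKM, which ignores gene length, the difference in the CDK6 share moved to -4.51 percentage points, against -0.84, and that in the CCND2 share to 0.29, against 0.16. The differences in the CCND1 and CCND3 shares became -6.83 and 6.55, against -10.96 and 10.81. Without 1 library the differences ranged from -13.97 to -7.51 points for the CCND1 share, 7.35 to 13.8 for CCND3, 0.148 to 0.170 for CCND2, -1.34 to -0.11 for CDK6, -35.8 to -31.7 for RB1, 17.2 to 21.1 for RBL1 and 10.6 to 17.7 for RBL2. The log2 D cyclin sum differed by -0.32 to 0.21, positive without Vector 3, and the log2 INK4 to CDK ratio by 2.69 to 2.98. At this depth CCND2, with 1 count under the Vector label, lies near the limit of detection.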

Other observations

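Genes next to RB1 on chromosome 13 were mostly lower under the LINC00665 label. Of the 10 nearest tested genes, 5 on each side, all had a negative log2 fold change and 7 fell by edgeR at an adjusted p of 0.05, where 29.3% of all tested genes fell, with a median log2 fold change of -1.12. RCBTB2, which overlaps RB1 on the opposite strand but shares no exon bases with it, averaged 0.457 CPM under the LINC00665 label and 6.01 CPM under the Vector label. Its log2 fold change was -3.70 (SE 0.31, edgeR adjusted p = 2.1e-05). On the other side ITM2B averaged 107 and 122 CPM and did not pass (log2 fold change -0.20, SE 0.15). MED4, one gene further, averaged 10.6 and 25.1 CPM.

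Around E2F3 on chromosome 6, the 2 genes that follow were higher by more than E2F3 itself. CDKAL1, a tRNA-modifying enzyme gene, averaged 206 CPM under the LINC00665 label and 19.7 CPM under the Vector label (log2 fold change 3.39, SE 0.14, edgeR adjusted p = 5.4e-07). SOX4, a transcription factor gene, averaged 1125 and 46.7 CPM (4.59, SE 0.44, adjusted p = 4.5e-05). On the other side MBOAT1 averaged 8.07 and 7.69 CPM and did not pass. Of the 10 nearest tested genes, 4 rose and 4 fell, where 34.2% of all tested genes rose and 29.3% fell. These neighbours were looked up after the values of RB1 and E2F3 had been seen, and no cause was tested.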
